A study of Mus musculus with 24 samples.

Results

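The chaperonin CCT, also called TRiC, is the folding chamber of the cytosol. It is built from 8 related subunits, encoded in the mouse by Tcp1, Cct2, Cct3, Cct4, Cct5, Cct6a, Cct7 and Cct8, and these 8 genes, of 35868 in the tables, are described here. Each subunit holds a fixed place in a ring, a pair of rings is stacked back to back, and newly made actin, tubulin and other proteins are folded inside as the rings open and close with ATP. Tcp1, Cct2, Cct4 and Cct5 encode the subunits known to bind ATP tightly, and Cct3, Cct6a, Cct7 and Cct8 those that bind it weakly. Activated T cells enlarge, rebuild their cytoskeleton and divide, and loss of Cct8 in mouse T cells is known to impair their maturation. The 8 genes were chosen by measured values, since sets of chaperonin folding genes ranked high in Cat-Tg CD4 T cells post-tx. That choice used the Cat-Tg CD4 post-tx libraries, so each comparison with those libraries is given below as a description without a test. The tests between other CD4 groups, and of CD8 against CD4, still took their estimate of spread and their scaling in part from those libraries.

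RNA was sequenced in 24 libraries, 3 in each of 8 groups, defined by subset (sorted CD4 or CD8 T cells), by genotype of the donor mouse (Cat-Tg or WT) and by time (pre-tx or day 7 post-tx). Cat-Tg mice carry a transgene for human β-catenin that lacks its N-terminal end, in the p1017 vector, whose proximal Lck promoter drives expression in T cells. The study's methods describe heterozygous transgenic mice on a C57BL/6 background, with WT controls matched in age and sex. Pre-tx cells came straight from the spleens of donors. Post-tx cells of both genotypes had been given to lethally irradiated BALB/c mice together with WT bone marrow depleted of T cells, and were sorted from the spleen by the donor marker H-2Kb. The recipients received CD4 and CD8 donor cells together, so the post-tx CD4 and CD8 libraries are donor cells from an allogeneic host. The methods describe 3 mice in each group with both subsets sorted from each mouse, but the labels do not say which CD4 and CD8 libraries share a mouse. According to the methods the WT libraries were also used in other publications, and since the sample codes of all Cat-Tg libraries belong to a different series than those of WT, library series and genotype cannot be told apart.

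Some libraries went against their labels or stood apart. The share of Cd8a in the summed level of Cd8a and Cd4 was 49.97% to 63.9% in the 3 WT CD8 pre-tx-labelled libraries and 52.4% to 65.4% in the 3 with the WT CD4 pre-tx label, against 99.3% to 99.9% in Cat-Tg CD8 pre-tx and 1.27% to 3.39% in Cat-Tg CD4 pre-tx. The 10 B cell markers summed to between 4536 and 7977 CPM in the 6 WT pre-tx-labelled libraries and to between 157 and 602 CPM in the 6 Cat-Tg pre-tx libraries. Every comparison with WT pre-tx rests on those 6 libraries, no value without them can be had, and their part in the results was not tested. WT CD8 pre-tx replicate 2 and WT CD8 post-tx replicate 2 agreed least with the rest of their group, with a rank correlation over genes of at most 0.888 and 0.893. Cat-Tg CD4 post-tx replicate 1, at up to 0.942 against 0.965 between the others of its group, was not low among the 24 but had the fewest counts and the lowest level of its group for each subunit. Results that turn on these 3 libraries are given with and without them. Total estimated counts ranged from 11135713 to 50519825 per library, and each CCT subunit had between 524 and 31053 estimated counts in each library, so that none was near the limit of detection. Endogenous Ctnnb1, 43.9 to 143 CPM in Cat-Tg CD8 pre-tx and 52.1 to 150 CPM in the WT CD8 pre-tx-labelled libraries, does not check the genotype, because the transgene is the human gene.

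The 8 genes lie on 8 chromosomes, in GRCm38 coordinates of the GENCODE M21 annotation. Tcp1 is at chr17:12915701-12925067 on the plus strand, Cct2 at chr10:117051001-117063814 on the minus strand, Cct3 at chr3:88297116-88321767 on the plus strand and Cct4 at chr11:22990519-23003780 on the plus strand. Cct5 is at chr15:31590800-31601804 on the minus strand, Cct6a at chr5:129786998-129846371 on the plus strand, Cct7 at chr6:85451514-85468475 on the plus strand and Cct8 at chr16:87483326-87495873 on the minus strand. Tcp1 overlaps Mrpl18 and Acat3, Cct6a overlaps Psph, Cct7 overlaps Pradc1 and Cct8 overlaps Usp16, each on the opposite strand, and the library kit does not mark strand. The annotated pseudogenes Tcp1-ps1 and Cct3-ps1 averaged 3.42 and 4.89 estimated counts per library.

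Promoter windows from RefSeq on GRCm38.p6 were held for 7 of the members, 9 windows in all, and were read over the 250 bases before each annotated start site. The 150 bases nearest the start are shown for Cct2 and Cct8, which were called in transplanted WT CD4 T cells, and for Cct7, which moved least like the other members. Capitals mark matches on either strand to the CCAAT box (CCAAT), the GC box (GGGCGG) and the ETS site (CCGGAAG) within each window.
Cct2, chr10:117063853-117064002, minus strand: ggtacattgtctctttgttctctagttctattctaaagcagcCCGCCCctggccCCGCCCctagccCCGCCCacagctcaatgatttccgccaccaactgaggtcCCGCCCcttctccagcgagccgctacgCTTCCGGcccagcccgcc
Cct8, chr16:87495870-87496019, minus strand: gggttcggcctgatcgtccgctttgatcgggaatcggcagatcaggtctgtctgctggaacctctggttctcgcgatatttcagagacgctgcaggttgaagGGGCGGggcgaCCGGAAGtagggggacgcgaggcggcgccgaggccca
Cct7, chr6:85451355-85451504, plus strand: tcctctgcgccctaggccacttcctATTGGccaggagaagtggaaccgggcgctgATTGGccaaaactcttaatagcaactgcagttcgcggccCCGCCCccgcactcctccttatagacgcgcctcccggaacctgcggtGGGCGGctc

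The GC box was present in 8 of the 9 member windows and in each of the 7 members, against 32.7% of the 32851 mouse promoter windows of the same length. The CCAAT box was present in Tcp1, Cct3, Cct6a and Cct7, against 33.8% of all windows, and the ETS site in Cct2 and Cct8, against 6.91%. Cct2 shows 4 GC boxes and the ETS site within the printed stretch, whereas Cct7 shows CCAAT boxes in the reverse orientation and no ETS site. The core of the heat shock element (GAANNTTC) was found in 1 member window, the other start site of Cct2, against 6.69% of all windows. The TCF/LEF site (CTTTGAT), the sequence that the partners of β-catenin bind, was found in the windows of Cct5 and Cct8, against 3.21% of all windows. The E-box CACGTG, the TATA box TATAAA, the NRF1 site and the YY1 site AAGATGGCG were in no member window. GC content of the member windows ranged from 45.2% to 66.8%, against a median of 52.4% over all windows. These matches are descriptions of letters in a window and not of binding. The window of Tcp1 lies within the gene span of M21 and in an exon of Mrpl18 on the other strand, and is not printed. The printed stretch of Cct7 lies within the gene span of Pradc1 on the other strand. The windows of Cct6a and of the other start sites of Cct2 and Cct5 lie within their own gene spans, and that of Cct6a also within Psph on the other strand.

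Levels are given as TMM CPM, estimated counts as a share of the library total (CPM) after scaling by edgeR's TMM factors, as mean ± SD of 3 libraries. These levels were scaled over all 24 libraries, whereas fitted log2 fold changes used factors set within the libraries and genes of each fit. The ratio of levels is thereby shifted against the fitted fold change, by 0.32 on the log2 scale for Cat-Tg CD4 post-tx against pre-tx, by 0.20 for WT CD4 post-tx against pre-tx, by -0.16 for Cat-Tg against WT in CD8 pre-tx and by less in the others. The 8 subunits summed to 1123 ± 284 CPM in the WT CD4 pre-tx-labelled libraries and to 1430 ± 132 CPM in Cat-Tg CD4 pre-tx. Post-tx the sum was 2631 ± 310 CPM in WT CD4 and 2137 ± 704 CPM in Cat-Tg CD4. In CD8 the sum was 1590 ± 483 CPM in the WT pre-tx-labelled libraries, 2095 ± 404 CPM in Cat-Tg pre-tx, 2446 ± 82.6 CPM in WT post-tx and 3297 ± 420 CPM in Cat-Tg post-tx. Within Cat-Tg CD4 post-tx, replicate 1 summed to 1325 CPM and the others to 2502 and 2583 CPM. Bulk libraries cannot tell fewer cells of a type from less RNA per cell, here or in the results that follow.

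**Figure D1:**
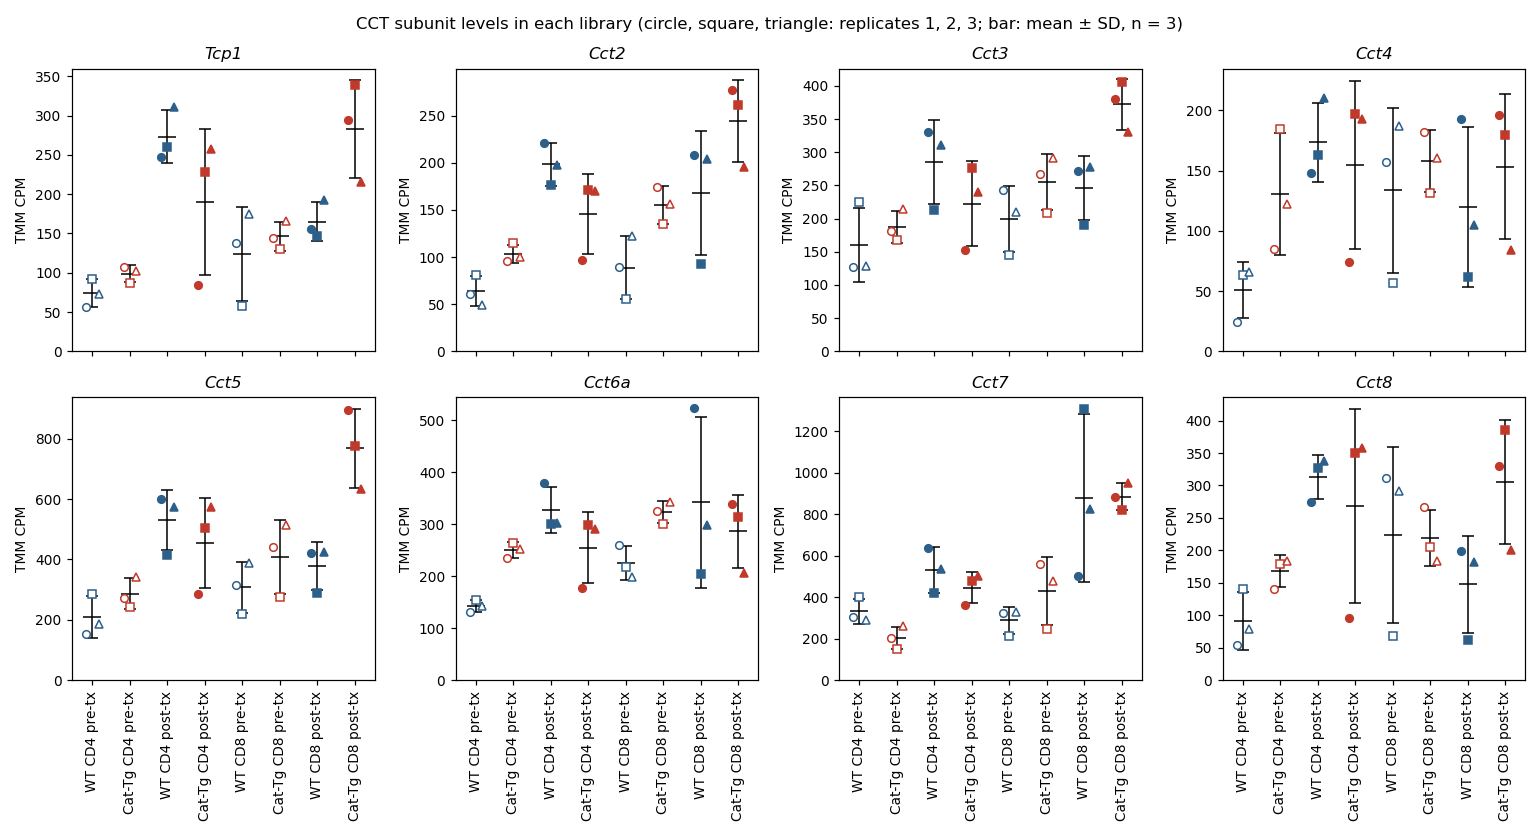
Level of each CCT subunit in every library, in TMM CPM on a linear axis from 0, by group. Points are single libraries (open, pre-tx; filled, post-tx; red, Cat-Tg; blue, WT) and bars give the mean and SD of 3; Cct7 reaches 1306 CPM in WT CD8 post-tx replicate 2, and on this scale 7 of the 8 subunits have their lowest mean in the WT CD4 pre-tx-labelled libraries, a count that is 4 with library totals alone and 2 in TPM.

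By TMM CPM, 7 of the 8 subunits had their lowest group mean in the WT CD4 pre-tx-labelled libraries, and 5 had their highest in Cat-Tg CD8 post-tx. These counts depended on the scale: with library totals alone they were 4 and 2, and in TPM they were 2 and 1. The exception at the low end was Cct7, whose lowest mean was in Cat-Tg CD4 pre-tx. The highest group mean was between 2.32 times (Cct3) and 4.33 times (Cct7) the lowest. Across the ordered groups of each gene, 54 of the 56 neighbouring pairs had libraries that overlapped, and 43 differed by less than their pooled SD. The remaining 2 pairs were Cct5 in Cat-Tg CD8 post-tx above WT CD4 post-tx, and Cct6a in the WT CD8 pre-tx-labelled libraries above the WT CD4 pre-tx-labelled ones.

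Between genes, levels were compared only per length. In estimated counts per kilobase of the longest transcript, Cct5 was first in 23 of 24 libraries and Tcp1 last in 13. For some members that longest transcript was a minor one that retains an intron. It held 3.98% of the counts of Tcp1 (3419 bases), 1.05% of Cct3 (3335 bases) and 0.61% of Cct7 (3884 bases). For Cct5 it was the main transcript, of 1853 bases with 99.0% of counts. The divisor thus lowers Tcp1, Cct3 and Cct7 against Cct5 on this scale. By TPM, which divides each transcript by its own length, Cct6a was first in 18 libraries and Cct4 last in 19. Cct6a made up 30.3% ± 11.3 (SD over 24 libraries) of the summed TPM of the 8 subunits, with a range of 14.3% to 51.4%, and Cct4 4.72% ± 1.995. The order of the subunits thus differed between the 2 scales, and for Cct6a the difference went with 1 short transcript that is described further on.

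**Figure D2:**
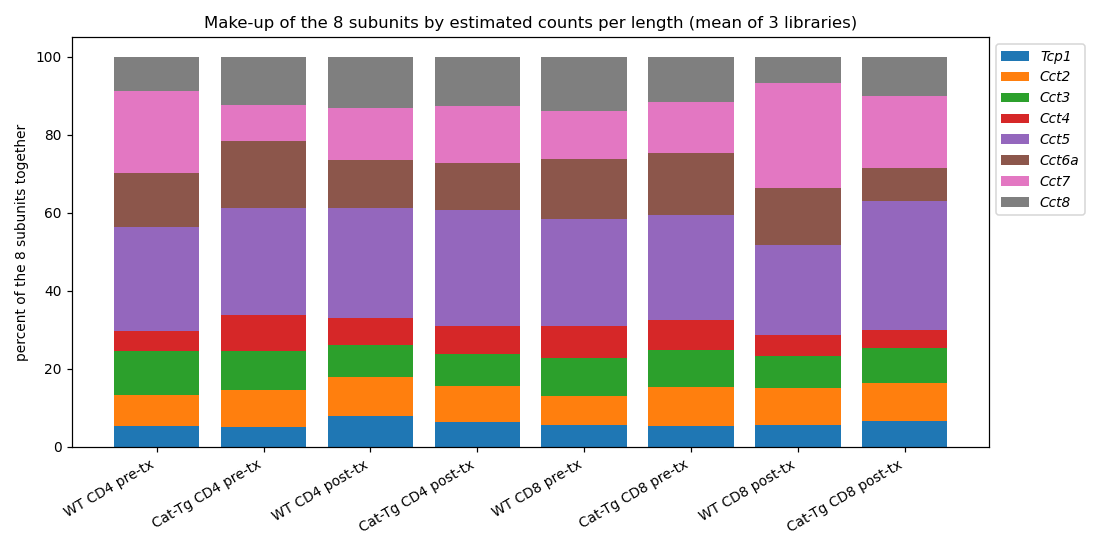
Share of each subunit in the 8 subunits together, in percent of estimated counts per kilobase of the longest transcript, as stacked means of 3 libraries in each group. The longest transcript of Tcp1, Cct3 and Cct7 is a minor one that retains an intron, which narrows their bands. Cct5 takes the widest band on this scale in each group except WT CD8 post-tx. There Cct7 averages 26.8%, with a range of 13.6% to 43.7% over the libraries, and Cct5 23.0%.

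Transplantation of WT CD4 T cells gave the most calls among the CCT subunits of the 9 comparisons tested. In WT CD4 post-tx, 6 of the 8 subunits rose against the WT CD4 pre-tx-labelled libraries at an adjusted p of at most 0.05, where 24.4% of 17243 genes tested were called and 14.8% were called higher. Among the subunits that bind ATP tightly all 4 rose, and among those that bind it weakly Cct6a and Cct8 did. The median log2 fold change of the 8 was 1.30, against -0.14 over all genes tested. All 8 values were above 0 in each alternative fit that measured them, and the calls held in all alternatives for 5 of the 6 subunits. Cct6a was called in 11 of 13, and missed with counts from length-scaled TPM (0.43, adjusted p = 0.194) and, at a log2 fold change just under 1, with a 2-fold threshold.

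Tcp1, the subunit that gave the complex its older name, was at 56.4, 92.3 and 73.0 CPM in the WT CD4 pre-tx-labelled libraries and at 248, 260 and 311 CPM post-tx. The groups were far apart, and the log2 fold change was 1.70 (SE 0.31, adjusted p = 0.00102). Cct2, a subunit also described as a receptor for aggregated protein in autophagy, was at 60.5, 81.2 and 49.6 CPM pre-tx and at 221, 176 and 198 CPM post-tx. Its log2 fold change was 1.45 (SE 0.24, adjusted p = 0.000529). Cct8 went from 54.2, 140 and 78.1 CPM to 274, 328 and 338 CPM, a log2 change of 1.63 (SE 0.38, adjusted p = 0.00588). For these 3 genes each post-tx library lay above each pre-tx library.

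Cct4, a subunit that contacts actin during its folding, was at 24.2, 63.5 and 65.6 CPM in the WT CD4 pre-tx-labelled libraries and at 148, 163 and 210 CPM post-tx, a log2 change of 1.58 (SE 0.41, adjusted p = 0.0102). Cct5, whose human counterpart is mutated in a hereditary sensory neuropathy, went from 154, 286 and 185 CPM to 601, 415 and 573 CPM, a log2 change of 1.16 (SE 0.25, adjusted p = 0.00381). Cct6a, the general form of a subunit that has a testis form in Cct6b, went from 131, 155 and 142 CPM to 379, 301 and 303 CPM, a log2 change of 1.00 (SE 0.22, adjusted p = 0.00373). Cct3 and Cct7 did not pass. The log2 fold change of Cct3 was 0.64 (adjusted p = 0.0657), and its range of 213 to 331 CPM post-tx overlapped 127 to 225 CPM pre-tx. That of Cct7 was 0.47 (adjusted p = 0.127), although its post-tx libraries, 418 to 637 CPM, lay above its pre-tx libraries, 289 to 402 CPM. In all, 7 subunits had groups that did not overlap, as did 27.5% of genes tested in that direction.

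The partners of CCT moved as follows in the same comparison. Of 9 prefoldin subunits and CCT cofactors, 4 rose. They were Pfdn1, a subunit of the prefoldin complex that hands actin and tubulin to CCT (log2 fold change 1.59, adjusted p = 0.00152), and the phosducin-like or thioredoxin-like cofactors Pdcl (1.60, adjusted p = 0.0187), Pdcl3 (1.82, adjusted p = 0.000370) and Txndc9 (1.48, adjusted p = 0.00562). Of 18 client genes 5 rose, among them Actg1, cytoplasmic γ-actin (1.00, adjusted p = 0.00189), while Actb, cytoplasmic β-actin, was at 0.36 (adjusted p = 0.300). Of 17 cytosolic HSP70, HSP90 and HSP40 chaperones 10 rose, among them Hsp90aa1, the inducible HSP90 (2.26, adjusted p = 4.35e-05), and Hspa8, the constitutive HSP70 (0.77, adjusted p = 0.0238). Of 7 ER chaperones 6 rose, with Pdia3, a disulfide isomerase, at 2.26 (adjusted p = 0.000123). Of 10 MYC and ribosome biogenesis genes 4 rose.

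Markers of other cells and of division moved with this comparison too. All 13 proliferation genes rose, Birc5, a survivin that works in mitosis, by 3.07 on the log2 scale (adjusted p = 1.93e-06). The 10 B cell markers fell, from 5315 to 7977 CPM in sum in the WT CD4 pre-tx-labelled libraries to 41.5 to 62.4 CPM post-tx, and the 12 T cell markers rose, from 2821 to 4525 CPM in sum to 7479 to 11994 CPM. The part of this change of cell markers in the rise of the CCT subunits was not tested.

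**Figure D3:**
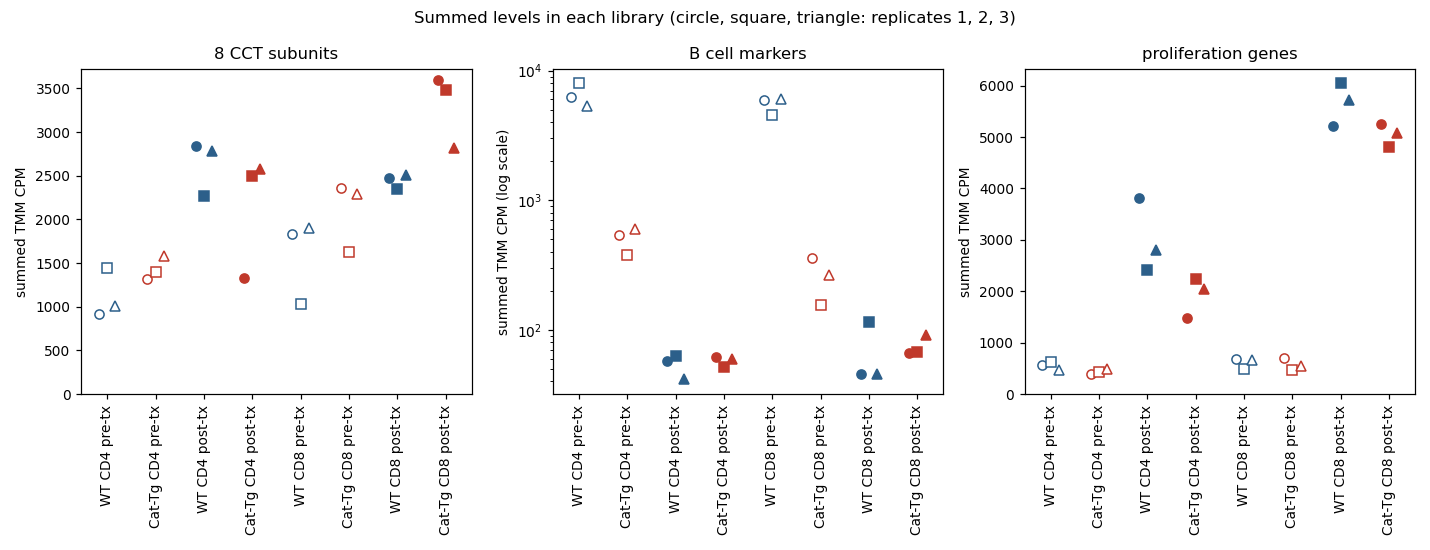
Summed TMM CPM in every library of the 8 CCT subunits, of 10 B cell markers (log axis) and of 13 proliferation genes, by group; circle, square and triangle are replicates 1, 2 and 3. The 6 WT pre-tx-labelled libraries stand above the others in B cell markers, from 4536 to 7977 CPM, and the proliferation genes are higher in each post-tx library than in any pre-tx library within CD4 and within CD8.

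In the CD4 pre-tx comparison of genotypes, 3 CCT subunits were higher in Cat-Tg than in the libraries labelled WT, where 20.4% of genes tested were called and 13.3% were called higher. The median log2 fold change of the 8 was 0.71, against 0.03 over all genes. Cct4 was at 84.7, 184 and 123 CPM in Cat-Tg and at 24.2, 63.5 and 65.6 CPM in the libraries labelled WT, a log2 change of 1.50 (SE 0.40, adjusted p = 0.0152). Cct6a was at 235, 265 and 252 CPM in Cat-Tg, above 131, 155 and 142 CPM, a log2 change of 0.93 (SE 0.22, adjusted p = 0.00636). Cct2 was at 95.7, 114 and 100 CPM in Cat-Tg, above 60.5, 81.2 and 49.6 CPM, a log2 change of 0.83 (SE 0.24, adjusted p = 0.0219). The calls held in 13 of 14 alternative fits for Cct4, 9 of 13 for Cct6a and 6 of 14 for Cct2. Without WT replicate 1 none of the 3 was called, with adjusted p = 0.133 for Cct4, 0.0924 for Cct6a and 0.172 for Cct2, and Cct7, described next, was (-0.84, adjusted p = 0.0423). Without WT replicate 3 Cct2 (adjusted p = 0.238) and Cct6a (adjusted p = 0.0568) missed the threshold, and without Cat-Tg replicate 2 Cct2 (adjusted p = 0.0860) and Cct4 (adjusted p = 0.0923) did.

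Cct7 pointed the other way. It was at 202, 151 and 259 CPM in Cat-Tg CD4 pre-tx and at 305, 402 and 289 CPM in the libraries labelled WT, so that each Cat-Tg library was below each WT library. The log2 fold change was -0.59 (SE 0.22), which missed the threshold (adjusted p = 0.0705) and passed it in 10 of 14 alternative fits, DESeq2 included, with adjusted p from 0.00986 to 0.106. Cct8 was at 1.04 (SE 0.38, adjusted p = 0.0631), Cct5 at 0.59 (adjusted p = 0.116), Tcp1 at 0.54 (adjusted p = 0.244) and Cct3 at 0.36 (adjusted p = 0.351). For Cct2, Cct4 and Cct6a each Cat-Tg library lay above each WT library, as for 19.1% of genes tested, and for Cct7 below, as for 16.3%.

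Of the 9 prefoldin subunits and cofactors, 7 were called higher. Vbp1, a prefoldin subunit, was at 2.90 (adjusted p = 0.00177), and Pfdn5, the prefoldin subunit known as a binder of MYC, at 1.61 (adjusted p = 0.00128). Of the 18 clients, 11 were called lower, among them Actb (-1.005, adjusted p = 0.0107) and Tubb4b, a β-tubulin (-1.60, adjusted p = 0.000176). Tbca and Tbce, cofactors that act on tubulin after CCT, were higher (2.20, adjusted p = 0.000283, and 2.04, adjusted p = 0.000796). In the same libraries all 12 T cell markers were higher in Cat-Tg and all 10 B cell markers lower, and their part in these differences was not tested. Related chaperonin genes that are not among the members were scarce. The 5 genes Cct6b (the testis form of the Cct6a subunit), Cct8l1, Mkks, Bbs10 and Bbs12 together summed to between 1.48 and 21.8 CPM in any library. Of the 3 tested in CD4 only Bbs12, a component of the BBS chaperonin, was called in this comparison (3.35, adjusted p = 0.0154).

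In CD8 the comparison of transplanted with untransplanted WT cells gave 1 call among the CCT subunits, Cct7, where 23.6% of 15975 genes tested were called and 13.2% were called higher. Cct7 was at 322, 213 and 328 CPM in the WT CD8 pre-tx-labelled libraries and at 503, 1306 and 825 CPM post-tx. Replicate 2, 1 of the libraries that stood apart, was the highest, but the other 2 post-tx libraries were also above each pre-tx library, which 14.3% of genes tested were. The log2 fold change was 1.57 (SE 0.38, adjusted p = 0.00720). It was above 0 in each alternative and was called in 11 of 14, but not with library totals alone, with only the libraries compared or without the 3 libraries that stood apart, where the lowest value was 0.48. Cct2 had a log2 change of 0.93 (adjusted p = 0.112), and Cct8 one of -0.56 (adjusted p = 0.504).

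Replicate 2 of WT CD8 post-tx had the lowest level of its group in 7 of the 8 subunits, all but Cct7. It was at 62.1 CPM for Cct4, where the others were at 193 and 105 CPM, and at 61.9 CPM for Cct8, where the others were at 200 and 181 CPM. The summed level of its 8 subunits, 2352.5 CPM with its 1306 CPM of Cct7 included, was nevertheless close to 2477 and 2508 CPM in the others. The median log2 fold change of the 8 was 0.37, against -0.23 over all genes, and with library totals alone these medians were -0.62 and -1.26. Clients rose in this comparison, 12 of 18, with Tuba1b, an α-tubulin, at 3.55 (adjusted p = 8.47e-05), as did 5 of 9 prefoldin genes and cofactors and all 13 proliferation genes, while all 10 B cell markers fell and 11 of 12 T cell markers rose. The part of these marker changes in the values of the CCT subunits was not tested.

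Transplantation of Cat-Tg CD8 T cells gave no call among the CCT subunits, where 14% of genes tested were called and 8.73% were called higher. By edgeR 2 subunits had an unadjusted p under 0.05, and DESeq2 and limma-voom likewise called none. Cct7 was at 561, 246 and 477 CPM pre-tx and at 881, 820 and 950 CPM post-tx, a log2 change of 0.91 (SE 0.38, adjusted p = 0.105). Cct5 was at 442, 274 and 512 CPM pre-tx and at 896, 775 and 634 CPM post-tx, a log2 change of 0.79 (SE 0.35, adjusted p = 0.127). Tcp1 was at 144, 130 and 166 CPM pre-tx and at 294, 339 and 216 CPM post-tx, a log2 change of 0.83 (SE 0.39, adjusted p = 0.147). These 3 genes were called when only the 6 libraries compared were fitted. Together with Cct2 and Cct3 they had post-tx libraries that lay above all pre-tx libraries, as did 27.8% of genes tested.

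The log2 fold changes of the other 3 members were 0.36 for Cct8, -0.15 for Cct4 and -0.30 for Cct6a, and their groups overlapped. The median of the 8 was 0.48, against -0.26 over all genes tested. Of the 18 clients of CCT, 13 rose, among them Actg1 (2.86, adjusted p = 0.000997) and Actb (2.59, adjusted p = 0.00129), as did 12 of 13 proliferation genes. Of the 9 prefoldin genes and cofactors 1 was called, Pfdn5, which fell (-1.39, adjusted p = 0.0174). The 12 T cell markers summed to 10523 to 14975 CPM pre-tx and to 13476 to 17022 CPM post-tx, and 7 of 10 B cell markers fell, from 157 to 358 CPM in sum pre-tx to 66.6 to 91.2 CPM post-tx.

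Between genotypes in CD8, no CCT subunit was called either pre-tx or post-tx. Pre-tx, where 8.99% of genes tested were called and 4.51% were called higher in Cat-Tg, the 8 fitted log2 fold changes lay between 0.17 (Cct8, whose mean level in TMM CPM was 0.979 times that of WT) and 0.98 (Cct2, SE 0.41, adjusted p = 0.155), with a median of 0.55 against -0.07 over all genes, and with library totals alone 5 of the 8 turned below 0. Cct2 and Cct6a had Cat-Tg libraries that all lay above those labelled WT, as had 13.8% of genes tested. In this comparison 1 subunit had an unadjusted p under 0.05 by edgeR, and limma-voom and DESeq2 called none. Cct8 spread widely, at 312, 67.6 and 291 CPM in the WT CD8 pre-tx-labelled libraries, where replicate 2, 1 of the libraries that stood apart, was the low one. Among the partners, Pfdn5 (1.97, adjusted p = 0.00306) and Tbca, a cofactor that binds β-tubulin after CCT (1.96, adjusted p = 0.0375), were higher in Cat-Tg, while 2 of 18 cytosolic chaperones and 1 of 7 ER chaperones were lower. In the same comparison 8 of 12 T cell markers were higher and all 10 B cell markers lower, and their part was not tested.

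Post-tx, where 1.67% of genes tested were called and 1.1% were called higher in Cat-Tg, the largest differences were in Cct8 and Cct5. Cct8 was at 330, 385 and 201 CPM in Cat-Tg CD8 post-tx and at 200, 61.9 and 181 CPM in WT, a log2 change of 1.10 (SE 0.54, adjusted p = 0.285). Replicate 3 of Cat-Tg and replicate 1 of WT were nearly level. Cct5 was at 896, 775 and 634 CPM in Cat-Tg and at 422, 288 and 425 CPM in WT, a log2 change of 1.07 (SE 0.35, adjusted p = 0.130), and without WT replicate 1 it was called (adjusted p = 0.0454). Tcp1 was at 294, 339 and 216 CPM in Cat-Tg and at 155, 147 and 193 CPM in WT, a log2 change of 0.84 (SE 0.39, adjusted p = 0.258). For these 3 genes and Cct3 each Cat-Tg library lay above each WT library, as for 12.7% of genes tested. Cell markers differed here too. T cell markers summed to 13476 to 17022 CPM in Cat-Tg and 18448 to 23187 CPM in WT, and red cell markers to 3032 to 5226 CPM and 274 to 2477 CPM. The sums of B cell markers overlapped, at 66.6 to 91.2 CPM and 45.3 to 116 CPM. The part of these markers in the values of the CCT subunits was not tested.

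The remaining members differed less in CD8 post-tx. The log2 fold change of Cct7 was 0.07 (adjusted p = 0.938), with 881, 820 and 950 CPM in Cat-Tg inside the range of 503 to 1306 CPM in WT, and that of Cct6a was -0.21 (adjusted p = 0.799). Without WT replicate 1, which at 525 CPM was well above the others of its group, Cct6a was at 0.41. Of the partners, Pfdn4 was at -2.15 (adjusted p = 0.0569), Tuba1b at -1.31 (adjusted p = 0.128) and Actb at 0.38 (adjusted p = 0.637). By edgeR 2 CCT subunits had an unadjusted p under 0.05, and limma-voom and DESeq2 called none. The interaction, which tests whether the effect of genotype in CD8 T cells differed by transplantation, passed for no subunit, where 10.7% of genes tested did. Its values ran from -0.89 (Cct6a, adjusted p = 0.341) to 0.92 (Cct8, adjusted p = 0.479), none had an unadjusted p under 0.05 by edgeR, and limma-voom and DESeq2 called none.

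**Figure D4:**
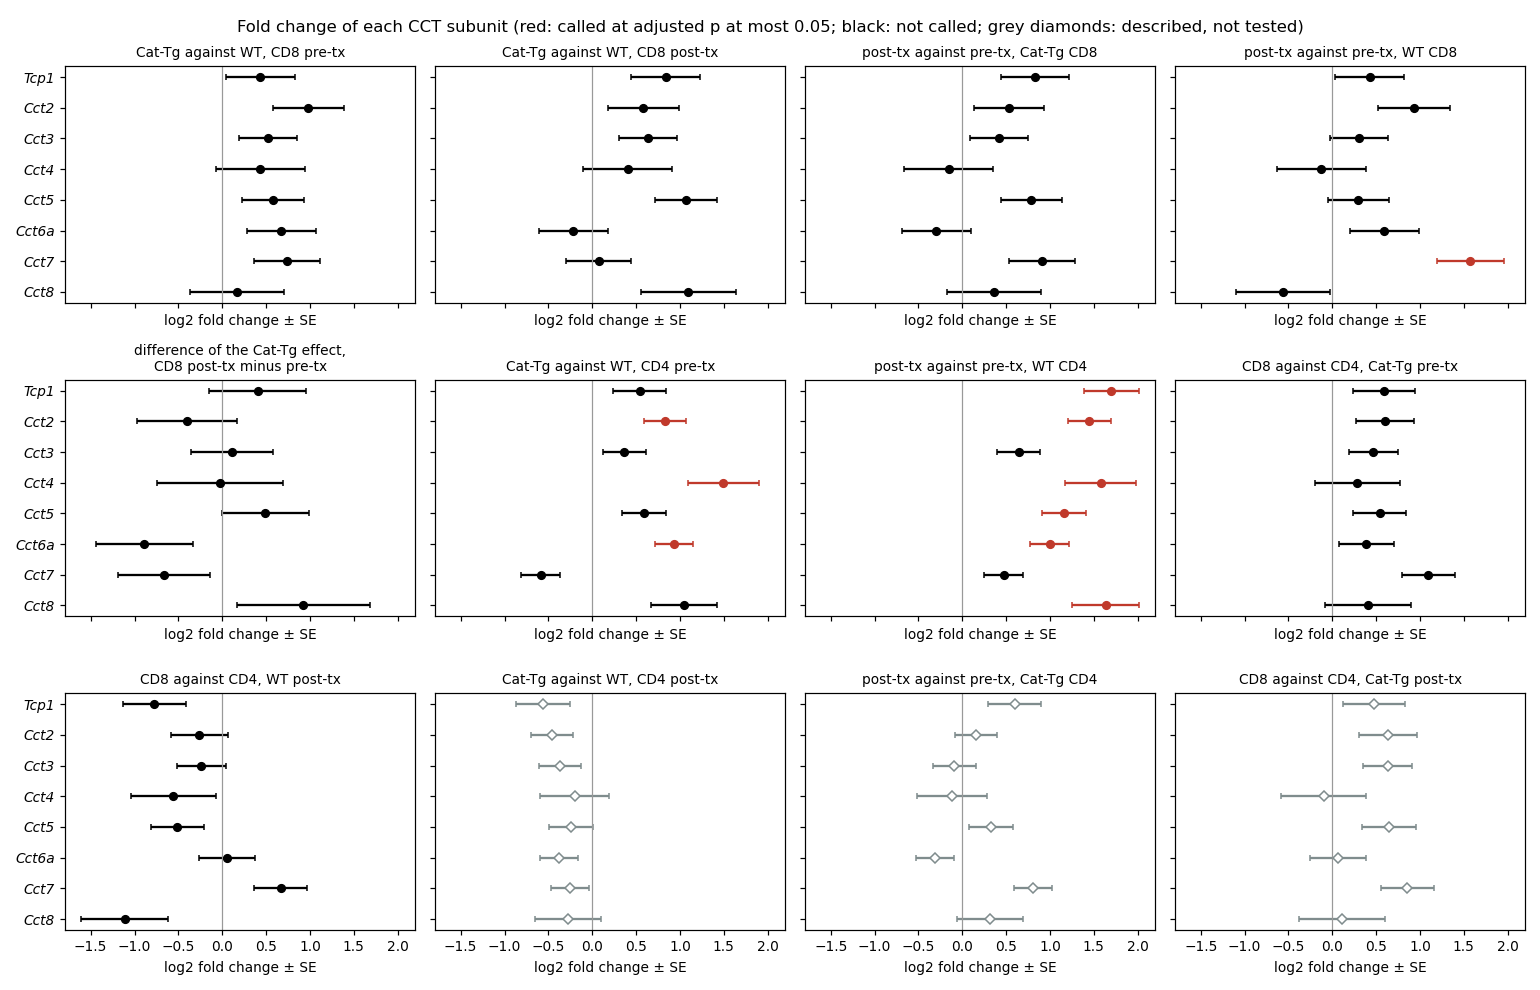
Log2 fold change of each subunit with its SE in 12 comparisons, from the edgeR fits; red points were called at an adjusted p of at most 0.05, black points were not, and grey diamonds are comparisons with Cat-Tg CD4 post-tx, which are described and not tested. The called points are 6 subunits in WT CD4 post-tx against pre-tx, 3 in CD4 pre-tx and Cct7 in WT CD8 post-tx against pre-tx.

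CD8 and CD4 T cells were compared where the libraries of both matched their labels in Cd8a and Cd4. In Cat-Tg pre-tx all 8 log2 fold changes were above 0, from 0.28 (Cct4) to 1.09 (Cct7), with a median of 0.50 against -0.05 over all genes, and none was called, where 1.52% of genes tested were called and 0.367% were called higher in CD8. Cct7 was at 561, 246 and 477 CPM in CD8 and at 202, 151 and 259 CPM in CD4, a log2 change of 1.09 (SE 0.30, adjusted p = 0.0754). It was the member with an unadjusted p under 0.05, its lowest CD8 library lay below its highest CD4 library, and DESeq2 called it (adjusted p = 0.0282), as did edgeR without Cat-Tg CD8 pre-tx replicate 2, the low library (adjusted p = 0.0327). By limma-voom none was called. Tcp1, Cct2 and Cct6a had CD8 libraries that all lay above the CD4 libraries, as had 6.74% of genes tested. Myeloid markers summed to 197 to 798 CPM in these CD8 libraries and 1040 to 1614 CPM in CD4, and B cell markers to 157 to 358 CPM and 378 to 602 CPM. The sums of T cell markers overlapped, at 10523 to 14975 CPM and 10316 to 12587 CPM. The part of these markers in the values was not tested.

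In WT post-tx 6 of 8 log2 fold changes were below 0, with a median of -0.39 against -0.03 over all genes, and none was called, where 13.1% of genes tested were called and 5.98% were called higher in CD8. Without WT CD8 post-tx replicate 2, which stood apart, Cct2 (0.25), Cct3 (0.15) and Cct4 (0.010) were above 0 as well and the median was 0.078, again with none called. Tcp1 was at 155, 147 and 193 CPM in CD8 and at 248, 260 and 311 CPM in CD4, a log2 change of -0.77 (SE 0.36, adjusted p = 0.167). Cct8 was at 200, 61.9 and 181 CPM in CD8 and at 274, 328 and 338 CPM in CD4, a log2 change of -1.11 (SE 0.50, adjusted p = 0.155). These 2 genes had CD8 libraries that all lay below the CD4 libraries, as had 16.7% of genes tested. Cct7 was at 0.67 (SE 0.30, adjusted p = 0.158), higher in CD8, and was called by DESeq2 (0.88, adjusted p = 0.0395) and by edgeR without WT CD8 post-tx replicate 1 (1.07, adjusted p = 0.0193). By edgeR 3 members had an unadjusted p under 0.05, and limma-voom called none. With library totals alone 4 members were called, all lower in CD8, and the median of all genes was then at -0.78. In the same comparison 10 of 18 clients were called higher in CD8 and 1 lower, with Tuba1b at 2.07 (adjusted p = 0.000408), and so were 3 of 9 prefoldin genes and cofactors, with Pfdn4 at 2.60 (adjusted p = 0.000593). Of the markers, 7 of 10 for myeloid cells were called lower in CD8, with sums of 137 to 304 CPM against 684 to 997 CPM in CD4, while 6 of 12 for T cells and 4 of 13 proliferation genes were called higher, and their part in these values was not tested.

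The Cat-Tg CD4 post-tx libraries, from which the members were chosen, are described without a test. Against WT CD4 post-tx all 8 log2 fold changes were below 0, from -0.20 (Cct4) to -0.56 (Tcp1), with a median of -0.32 against -0.19 over all genes tested, of which 10.2% were called. The level of Tcp1 was 84.0, 228 and 258 CPM in Cat-Tg and 248, 260 and 311 CPM in WT. The level of Cct8 was 95.3, 350 and 358 CPM in Cat-Tg and 274, 328 and 338 CPM in WT, so that 2 of the Cat-Tg libraries were above the WT group and replicate 1 was far below it. Replicate 1, the shallowest of the 24 libraries, was the lowest of its group for each of the 8 subunits. The median of the 8 without it was -0.18. Over the 14 alternatives that leave no single replicate out, the median ran from -0.40 to -0.03, and at most 2 of the 8 values were above 0. Only Cct2 and Cct6a had Cat-Tg libraries that all lay below those of WT, as did 18.7% of genes tested.

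Against Cat-Tg CD4 pre-tx, the fitted log2 fold changes of Cat-Tg CD4 post-tx ran from -0.31 (Cct6a) to 0.81 (Cct7), with a median of 0.24 against -0.38 over all genes tested, of which 45.2% were called. For Cct3, Cct4 and Cct6a the direction depended on the scaling, since their mean levels in TMM CPM over all 24 libraries were higher post-tx, by 1.18, 1.19 and 1.02 times. The median was 0.45 without replicate 1 of Cat-Tg CD4 post-tx, between 0.06 and 0.45 with each replicate of either group left out, and 0.70 with the gene-length offset. Cct7, at 202, 151 and 259 CPM pre-tx and 361, 476 and 501 CPM post-tx, was the member whose groups did not overlap, as 26.3% of genes tested did not in that direction. Between Cat-Tg CD8 and CD4 post-tx the values had a median of 0.56 against 0.06 over all genes, of which 6% were called, and Cct7 again had the highest, at 0.85. Cct2, Cct3, Cct5 and Cct7 had CD8 libraries that all lay above the CD4 libraries, as had 16.1% of genes tested. In the Cat-Tg CD4 post-tx libraries the myeloid markers summed to between 3014 and 4436 CPM, against 684 to 997 CPM in WT CD4 post-tx, and the red cell markers to between 4280 and 24745 CPM, against 688 to 1177 CPM. Their part in these values was not tested.

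Reads of some members were spread over transcripts that do not encode the whole protein. Cct8-209, annotated as a target of nonsense-mediated decay, the pathway that destroys messages with early stop codons, held 34.0% of the estimated counts of Cct8 over all libraries. Its share in WT CD8 post-tx was 19.2%, 10.8% and 23.3%, and in Cat-Tg CD8 post-tx 32.9%, 40.0% and 39.1%. In Cat-Tg CD4 post-tx replicate 1 the share was 0.592%, where the other 2 libraries had 38.0% and 36.9%. Cct7-202, of the same class, held 17.9% of the counts of Cct7, and again replicate 1 of Cat-Tg CD4 post-tx was the lowest, at 5.94%. These are assignments of shared reads by kallisto, not direct counts of each transcript.

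Cct6a differs from the other members in its annotation, which lists it in M21 as a processed transcript with 0 protein-coding transcripts of 4. Cct6a-203, a retained-intron transcript of 459 bases, held 29.4% of the estimated counts of Cct6a and, being short, 82.3% of its TPM. Its share of the counts was 70.0% in WT CD8 pre-tx replicate 2 and 10.2% in the lowest library, a Cat-Tg CD4 post-tx one. Without retained-intron transcripts the Cat-Tg difference of Cct6a in CD8 post-tx turned from -0.21 to 0.42 on the log2 scale. In WT CD8 pre-tx replicate 2 the retained-intron share of Tcp1 was 48.0%, where the other libraries of that group had 8.98% and 14.7%. Cct5, by contrast, had 99.0% of its counts on the single coding transcript Cct5-201.

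**Figure D5:**
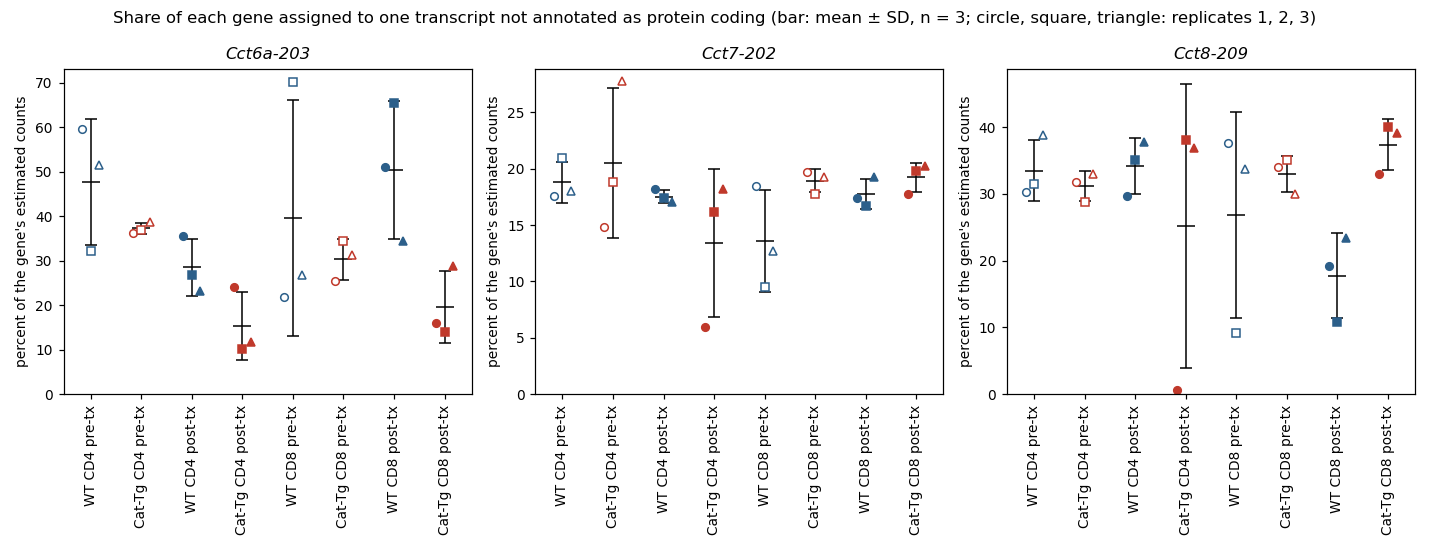
Percent of the estimated counts of Cct6a, Cct7 and Cct8 that were assigned to Cct6a-203, Cct7-202 and Cct8-209, in every library by group, with mean and SD of 3 as bars. Cct8-209 is at 10.8% to 23.3% in WT CD8 post-tx and 32.9% to 40.0% in Cat-Tg CD8 post-tx, and at 0.592% in Cat-Tg CD4 post-tx replicate 1.

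The members differed in how closely they followed each other over the 24 libraries. Pearson's r of log2 CPM with the mean of the 8 members was 0.96 for Cct5 and Cct2, 0.95 for Tcp1, 0.94 for Cct3, 0.88 for Cct8, 0.83 for Cct4, 0.78 for Cct6a and 0.62 for Cct7. In deviations from the group means Cct7 was lowest as well, at 0.31, and Cct8 highest, at 0.95. Over the 28 pairs of members r ranged from 0.15 to 0.94 with a median of 0.73. The points share libraries, depth and RNA quality, members are part of their own mean, and the values are descriptions.

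Outside the complex, the 10 coding genes most like the mean of the members had r between 0.93 and 0.95. They were Psma1 and Psmc1, subunits of the proteasome, Rbbp7, a histone-binding protein, Nono, a nuclear RNA-binding protein, Stat4, the transcription factor of IL-12 signaling, Copb2, a coat protein of Golgi vesicles, Ptpn22, a phosphatase of T cell receptor signaling, Acsl5, a fatty acid ligase, and the 14-3-3 proteins Ywhaz and Ywhaq. Their r in deviations from the group means was 0.88 to 0.94. Hspa8 was the chaperone of the lists that followed the members most closely, at 0.90.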

How the data were processed

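RNA of sorted spleen T cells was made into cDNA with the SMARTseq HT kit and into libraries with Nextera XT, which do not mark strand. The authors ran kallisto 0.46.2 on each library, and the submitters' processing notes also name limma and the build mm9. The transcript index is not given in the sources used here, and of the 117497 transcripts listed, 116428 matched GENCODE M21 by identifier, leaving out 1069. The deposited values are estimated counts, which are not normalized, and TPM, scaled by effective length and library total.

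Estimated counts were summed to gene symbols and rounded to whole numbers. Genes above 1 CPM in at least 3 libraries were tested with the quasi-likelihood test of edgeR 4.0.16 (R 4.3.3) with TMM factors, in the 12 CD8 libraries, the 12 CD4 libraries, or all 24 for CD8 against CD4. Benjamini-Hochberg adjustment was over all genes tested, and called means an adjusted p of at most 0.05. A log2 fold change is on edgeR's scale. Scripts were tested on simulated data. Alternatives used DESeq2 1.42.0, limma-voom (limma 3.58.1), other scalings, filters and counts, a replicate block and each replicate left out; leaving out 3 libraries that stood apart, and leaving out retained-intron transcripts, were chosen after seeing the data. Deviations of same-numbered libraries from their group means correlated at -0.22 to 0.19, so the numbers were not taken as pairs.

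The members and lists were chosen with earlier results of these data known. Named are all 8 members, every prefoldin, cofactor and CCT-like gene the text needs, at most the 4 genes of highest mean TPM in each other list, and the 10 coding genes most like the mean of the members. Depth was 11135713 to 50519825 estimated counts, at which 3 counts equal 0.0594 to 0.269 CPM, which covers counting error only.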

Additional observations from a re-analysis of the deposited data

Results flagged for a closer look

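Tcp1 was listed because the libraries of CD8 and CD4 T cells did not overlap in 2 settings, on opposite sides. In Cat-Tg pre-tx all 3 CD8 libraries were above all 3 CD4 libraries, with means of 147 and 99.0 CPM, as for 6.74% of genes tested, and in WT post-tx all 3 CD8 libraries were below all 3 CD4 libraries, with means of 165 and 273 CPM, as for 16.7%. Neither comparison was called by edgeR (adjusted p = 0.656 and 0.167), and the difference between them was not tested.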

How the results depend on the processing

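Of the values under alternatives that leave no single replicate out, 941 kept their direction and side of the threshold, 27 passed it in place of missing it, 18 missed it in place of passing it and 37 turned their direction, none of which was called in the main analysis. The 6 calls of WT CD4 post-tx against pre-tx numbered 6 or 7 with each replicate left out and 5 to 7 in the other alternatives. In CD4 pre-tx 1 subunit was called with a 2-fold threshold (log2 fold change of at least 1), 1 with no filter on low counts, where it was Cct7 and lower in Cat-Tg, and 6 without the 3 libraries that stood apart. Of those 3 libraries only Cat-Tg CD4 post-tx replicate 1 is in the CD4 fit, and it is outside this comparison. It was singled out in part by its low level of each subunit, so the count of 6 is not independent of the members' values. For WT CD8 post-tx against pre-tx 0 were called with library totals alone, with only the libraries compared and without those 3 libraries, the edgeR fits in which Cct7 missed the threshold. With only the libraries compared 3 were called for Cat-Tg CD8 post-tx against pre-tx and 1 for CD8 pre-tx, Cct2. For CD8 against CD4 DESeq2 called 1 in Cat-Tg pre-tx and 1 in WT post-tx, and library totals alone gave 4 in WT post-tx. The median of the subunits for Cat-Tg CD4 post-tx against pre-tx was 0.70 with the gene-length offset. The number of subunits lowest in WT CD4 pre-tx was 2 in TPM and 4 with library totals, and the number highest in Cat-Tg CD8 post-tx 1 and 2. The cause of these changes was not tested.

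With each replicate left out, the calls numbered 1 to 4 in CD4 pre-tx (1 without Cat-Tg replicate 2, Cct6a, or WT replicate 1, Cct7 and lower in Cat-Tg), 1 to 2 in WT CD8 post-tx against pre-tx (2 without WT CD8 post-tx replicate 2), and 0 to 1 in CD8 post-tx (1 without WT replicate 1) and in CD8 against CD4 of Cat-Tg pre-tx (1 without CD8 replicate 2) and WT post-tx (1 without CD8 replicate 1). The medians ran from 0.06 to 0.45 for Cat-Tg CD4 post-tx against pre-tx, from -0.49 to -0.18 for CD4 post-tx and from 0.41 to 0.81 for CD8 against CD4 of Cat-Tg post-tx. With the replicate number as a block, although the numbers did not pair the libraries, 4 subunits were called in CD4 pre-tx, Cct8 in addition (1.10, adjusted p = 0.00817), and the other counts of calls were as before; the Cct4 interaction was 0.069.

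The values that turned direction, on the log2 scale, were these. In CD8 pre-tx with library totals Tcp1 was -0.11, Cct3 -0.039, Cct4 -0.11, Cct5 -0.0053 and Cct8 -0.35, and Cct8 was -0.27 without the 3 libraries and -0.24 to 0.47 with each replicate left out. In CD8 post-tx Cct7 was -0.063 with DESeq2 size factors and in DESeq2, -0.070 with protein-coding transcripts and -0.030 to 0.52 with each replicate left out, and Cct6a 0.39 with the gene-length offset, 0.42 without retained introns and -0.40 to 0.41 with each replicate left out. For Cat-Tg CD8 post-tx against pre-tx Cct6a was 0.15 with the gene-length offset and Cct4 -0.36 to 0.14 with each replicate left out. For WT CD8 post-tx against pre-tx with library totals Tcp1 was -0.57, Cct2 -0.022, Cct3 -0.68, Cct5 -0.69 and Cct6a -0.37; Cct3 was -0.0060 with length-scaled TPM, Cct4 0.046 and Cct6a -0.22 with the gene-length offset, and with each replicate left out Cct3 was -0.048 to 0.43, Cct4 -0.92 to 0.16, Cct5 -0.069 to 0.44 and Cct6a -0.15 to 0.67. In the interaction with library totals Cct2 was 0.30, Cct4 0.63 and Cct7 0.20; Cct4 was 0.17 with no filter, 0.50 with length-scaled TPM and 0.079 without the 3 libraries, Cct2 0.021 and Cct6a 0.37 with the gene-length offset, and with each replicate left out Cct2 was -0.66 to 0.015, Cct3 -0.020 to 0.44 and Cct4 -0.33 to 0.72. For CD8 against CD4 of WT post-tx with library totals Cct6a was -0.61 and Cct7 -0.13; Cct6a was -0.094 in limma-voom, -0.40 with the gene-length offset, -0.14 without the libraries labelled WT pre-tx and -0.28 without retained introns, Cct2 0.13 and Cct3 0.026 without the 3 libraries, and with each replicate left out Cct2 was -0.36 to 0.25, Cct3 -0.39 to 0.15, Cct4 -0.98 to 0.010 and Cct6a -0.31 to 0.57.

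Counts over all genes moved more. CD8 post-tx had 266 calls, against 30 with only the libraries compared and 1308 by DESeq2. The other tested comparisons moved by over 1.5 times in at least 1 alternative, with 1436 calls (914 to 2598) in CD8 pre-tx, 2234 (1520 to 4471) and 3775 (2394 to 5011) for CD8 post-tx against pre-tx in Cat-Tg and WT, 1710 (853 to 2865) in the interaction, 291 (209 to 631) and 2510 (869 to 3853) for CD8 against CD4, but not in CD4 pre-tx, 3525 (3014 to 4398), and WT CD4 post-tx against pre-tx, 4207 (3266 to 5203). With library totals alone the share of calls that were higher fell from 50.1% to 16.9% in CD8 pre-tx and from 55.8% to 17.3% for WT CD8 post-tx against pre-tx, where the median of all genes was -0.64 and -1.26. Protein-coding transcripts gave no value for Cct6a, and only the libraries compared was not run for the interaction. No value of WT pre-tx could be had without the libraries that went against their labels.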
